A study of Mus musculus with 11 samples.

Results

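The genes described here are 34 genes of the interferon response and of class I antigen presentation, measured in B10.BR mouse T cells that had been cultured with dendritic cells from different organs. They were chosen by gene symbol, from a list drawn up with earlier results of these data known. For 32 of the 34 a probe set naming that gene alone was found, out of 12393 genes with such a probe set. All 32 were among the 7436 genes tested, those in the upper 60% by mean level. Isg15 and Psme2 were present only on probe sets that also listed another gene and were not analysed here. The members were divided into 19 targets of type I interferon, of which 18 were measured, and 15 genes of the interferon-gamma response and class I pathway, of which 14 were measured.

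The 11 samples were RNA of B10.BR T cells that had been stimulated for 4 days by C57BL/6 dendritic cells, each on 1 single-colour array. The dendritic cells came from liver (n = 3), from organs abbreviated MLN (n = 3) and PLN (n = 3), customarily the mesenteric and peripheral lymph nodes, or from spleen (n = 2). Liver, MLN and PLN arrays carried the replicate numbers 2, 3 and 4, and spleen arrays the numbers 3 and 4. The labels name no culture without dendritic cells, no cell sort after culture and no meaning for the numbers, and they do not say whether arrays of an organ came from separate cultures. All p-values are therefore set against a spread among arrays that may be only technical.

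Interferons are secreted proteins that signal through JAK kinases and STAT transcription factors. Type I interferon activates a complex that holds STAT2 and IRF9 and binds a DNA element called the interferon-stimulated response element (ISRE) before the genes it turns on. Interferon-gamma, a product of activated T cells, acts through a second element, the gamma-activated site (GAS). Many target genes restrict viruses, and others cut, transport and load peptides for class I major histocompatibility molecules, which CD8 T cells recognise and which differ between the B10.BR and C57BL/6 strains.

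Short stretches before the gene starts are shown because they hold the elements through which these genes are known to be read, in RefSeq promoters of the mouse build GRCm38.p6. Each is written 5′ to 3′ on the strand of its gene, and capitals mark the letters of an ISRE (GAAANNGAAA, or TTTCNNTTTC on the opposite strand) or of a GAS (TTCNNNGAA, which reads the same on both strands). The first 4 belong to type I targets, at chr19:34640760-34640838 (plus strand, 2 ISRE matches), chr5:120907526-120907570 (minus strand, 2 overlapping ISRE matches), chr8:71537562-71537627 (minus strand, 2 ISRE matches, the first overlapping a GAS match) and chr7:78913326-78913384 (plus strand, a GAS match).
Ifit1: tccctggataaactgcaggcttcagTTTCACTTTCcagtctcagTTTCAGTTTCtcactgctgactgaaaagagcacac
Oas1a: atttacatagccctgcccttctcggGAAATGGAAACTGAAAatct
Bst2: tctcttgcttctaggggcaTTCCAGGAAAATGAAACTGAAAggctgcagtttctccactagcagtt
Isg20: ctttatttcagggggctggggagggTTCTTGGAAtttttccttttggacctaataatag

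The next 4 belong to the interferon-gamma and class I genes, at chr3:142620579-142620638 (plus strand), chr3:142559974-142560039 (plus strand, 2 overlapping ISRE matches), chr11:58199497-58199555 (plus strand, a GAS match followed by an ISRE match) and chr2:122147523-122147582 (plus strand). Gbp2 and Gbp3 lie near each other on chromosome 3.
Gbp2: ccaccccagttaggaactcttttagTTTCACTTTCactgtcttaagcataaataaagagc
Gbp3: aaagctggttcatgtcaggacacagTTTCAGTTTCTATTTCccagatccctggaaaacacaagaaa
Igtp: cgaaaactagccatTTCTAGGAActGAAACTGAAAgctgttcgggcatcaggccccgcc
B2m: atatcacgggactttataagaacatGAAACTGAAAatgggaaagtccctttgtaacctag

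Promoters running from 250 bases before to 50 after the start were found for 30 of the 34 members, and not for Mx1, Tap2, Usp18 and Zbp1. ISRE letters were present in 15 of the 30 (50%), against 1079 of 27025 genes in the whole table (3.99%). Among type I targets 9 of 16 held them, and among interferon-gamma and class I genes 6 of 14. GAS letters were present in 10 of 30 members (33.3%) and in 2582 of all 27025 genes (9.55%). Neither set of letters was found in the window of Irf7, Irf9, Oasl2, Ms4a4c, Psmb9, Psmb10, Psme2, Tap1 or Tapbp. These counts are of letters in a window and do not show binding in these cells.

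**Figure D1:**
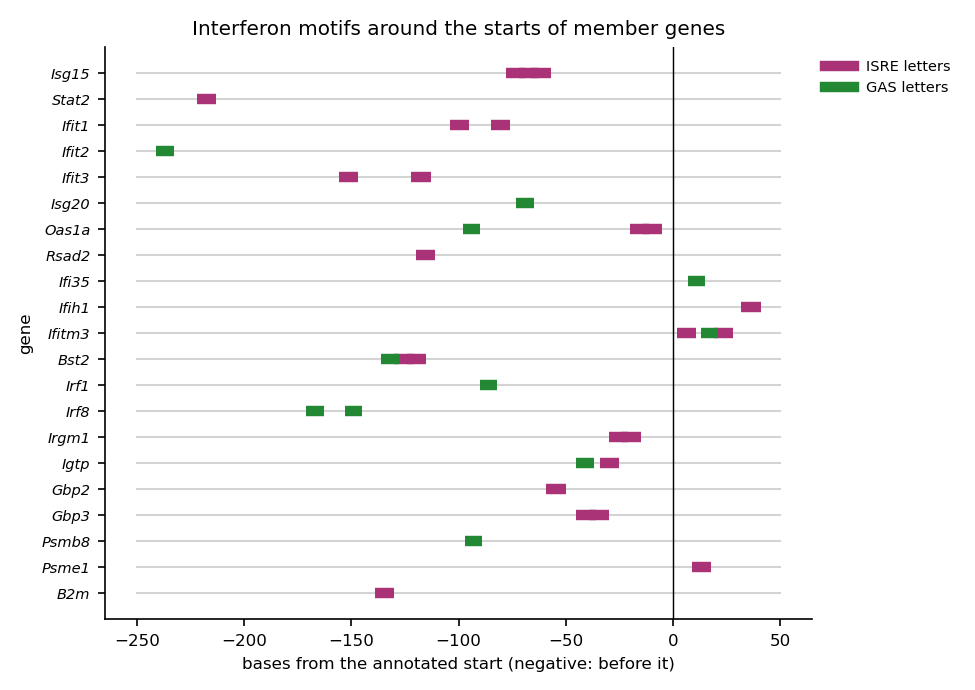
Positions of ISRE letters (purple) and GAS letters (green) in members that hold either, with distance from the annotated gene start in bases on the x axis and 1 gene per line. The members of the map include Isg15, which has no value here, and most matches lie before the start.

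Between T cells stimulated by dendritic cells of different organs, no member passed without the replicate number in the fit and 2 passed with it. With the 4 organs compared without regard to the replicate number, 0 of the 32 members passed limma's F-test (background 0.0403% of all genes tested), and 1 had an unadjusted p below 0.05 (2.56% of all genes). Each organ against the mean of the other 3 likewise gave 0 members, where 0.0941% of all genes passed in MLN and 0% in the other organs. At an unadjusted p below 0.05 there were 3 members in liver (4.25% of all genes), 3 in MLN (3.7%), 1 in PLN (1.21%) and 1 in spleen (1.92%). The arrays are paired by their replicate number, and a limma fit with that number as a block called 2 members in the F-test (6.25%, background 1.99%): Isg20, a nuclease that degrades RNA, and Ms4a4c, a membrane-spanning protein of the MS4A family that interferon induces. Both are type I targets, and 0 of the 14 interferon-gamma and class I genes passed. Organ, after number, accounted for a median of 19.6% of the variance of a member and 18.25% of that of all genes tested.

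Isg20 was higher with MLN dendritic cells than with those of any other organ when arrays of the same number were compared. Its log2 level, as log2(intensity + 16), was 9.76, 10.03 and 11.02 on the MLN arrays numbered 2, 3 and 4, and 8.98, 9.35 and 9.82 on the liver arrays. The PLN arrays read 9.39, 9.87 and 10.38 in the same order, and the spleen arrays numbered 3 and 4 read 9.70 and 9.57. MLN was thus the highest organ within each number, while the organs overlapped when numbers were pooled. In the blocked fit Isg20 was higher in MLN by 0.71 log2 units (SE 0.13) than the mean of the other organs, with adjusted p = 0.0190. Within numbers 2, 3 and 4 the difference of MLN from the mean of the other organs was 0.58, 0.39 and 1.10. The difference for liver was -0.46 (SE 0.13) with adjusted p = 0.0923, and it was -0.59, -0.51 and -0.50 within the numbers.

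Ms4a4c ran the other way, with its highest levels in cultures with liver dendritic cells and its lowest in those with MLN. The liver arrays numbered 3 and 4 read 9.58 and 10.28, with that numbered 2 between them, and the MLN arrays numbered 2, 3 and 4 read 8.51, 8.91 and 9.30, so that these organs did not overlap. Levels on the PLN arrays were 9.05, 9.37 and 9.73, and those on the spleen arrays numbered 3 and 4 were 9.19 and 10.15. In the blocked fit Ms4a4c fell by 0.72 (SE 0.13, adjusted p = 0.0152) in MLN and rose by 0.67 (SE 0.13, adjusted p = 0.0217) in liver. A second Ms4a4c probe set differed in the same directions, by -0.89 in MLN and 0.68 in liver. Both probe sets belong to classes that can also bind related sequences, so signal from other genes of the Ms4a4 family cannot be told apart from that of Ms4a4c.

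Both genes' organ calls rest on the block and on few arrays. Without the filter on low values the adjusted p rose to 0.0637 for Isg20 in MLN, 0.0520 for Ms4a4c in MLN and 0.0707 for Ms4a4c in liver. Leaving out MLN replicate 2 or MLN replicate 4 ended both MLN calls, with adjusted p of 0.101 and 0.193 for Isg20 and 0.148 and 0.130 for Ms4a4c. The liver call of Ms4a4c was lost without any of 5 arrays: Spleen replicate 3 (0.0636), PLN replicate 2 (0.0580), MLN replicate 2 (0.0584), and Liver replicates 2 (0.147) and 4 (0.0921). Averaging the probe sets of Ms4a4c gave an adjusted p of 0.0508 in liver.

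**Figure D2:**
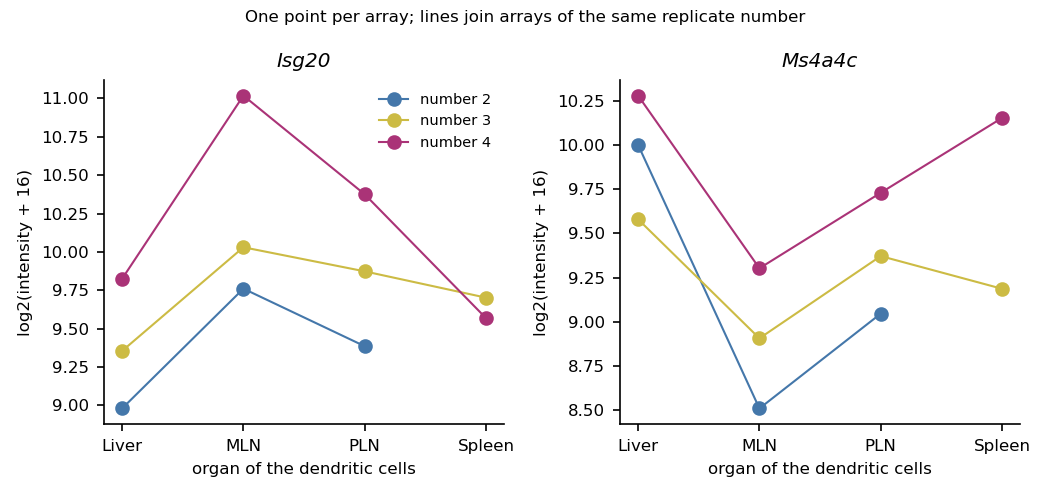
Log2 level, log2(intensity + 16), of Isg20 (left) and Ms4a4c (right) by organ of the dendritic cells, with 1 point per array and lines joining arrays of the same replicate number. In every number Isg20 is highest in MLN and Ms4a4c is lowest in MLN and highest in liver.

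The blocked fit called 1 member in liver (background 2.14%, of which 0.753% higher and 1.39% lower). It called 2 in MLN (background 1.33%, 0.713% higher and 0.619% lower), 0 in PLN (0.0134%) and 0 in spleen (0%). The median difference of the 32 members was 0.06 in liver, 0.02 in MLN, -0.09 in PLN and -0.03 in spleen, against 0.01, -0.01, 0.00 and 0.01 over all genes tested. Without the block the median in spleen was above zero, at 0.06. In PLN 24 of the 32 differences were below zero, and the lowest was that of Irgm1, an immunity-related GTPase, at -0.24. B2m, the light chain shared by class I molecules, lay between 13.40 and 13.54 on the 11 arrays, a range of 0.15 that the quantile normalization narrowed. As deposited its intensity ran from 9343.3 to 13463.1, a log2 range of 0.53 wider than that of 5 other members.

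More members differed between replicate numbers than between organs. With organ kept as a term in the limma fit, 21 of the 32 members passed the F-test over numbers 2, 3 and 4 (65.6%), where 48.1% of all genes tested passed. They comprised 14 of the 18 type I targets and 7 of the 14 interferon-gamma and class I genes. Of the 21, 12 kept their call whichever array was left out: Irf7, Isg20, Oasl2, Usp18, Ifitm3, Bst2, Zbp1, Ms4a4c, Gbp2, Gbp3, Tap2 and Tapbp. The count with an array left out was 16 to 20. The members that did not pass were Ifit2, Ifit3, Mx1, Ifih1, Irf1, Irf8, Irgm1, Psmb9, Psmb10, Psme1 and B2m.

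Type I targets were lowest on arrays numbered 2. The mean over the 18 genes, each taken relative to its own mean over the 11 arrays, was -0.25 ± 0.17 (SD, n = 3) for number 2, 0.05 ± 0.06 (SD, n = 4) for number 3 and 0.14 ± 0.10 (SD, n = 4) for number 4. Within number 2 the MLN array stood at -0.38, the PLN array at -0.31 and the liver array at -0.07. The arrays numbered 2 did not overlap with the others, though the liver array numbered 3 was close to that numbered 2, at -0.02. Numbers 3 and 4 overlapped. The highest values were those of the MLN and liver arrays numbered 4, at 0.26 and 0.19. The same mean over the 14 interferon-gamma and class I genes was -0.07 ± 0.10, -0.02 ± 0.05 and 0.07 ± 0.04 for numbers 2, 3 and 4, with overlap between all numbers. By organ the type I mean was 0.05 ± 0.03 (SD, n = 2) for spleen, and 0.04 ± 0.14, 0.00 ± 0.34 and -0.07 ± 0.21 (SD, n = 3 each) for liver, MLN and PLN, so the organs overlapped.

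**Figure D3:**
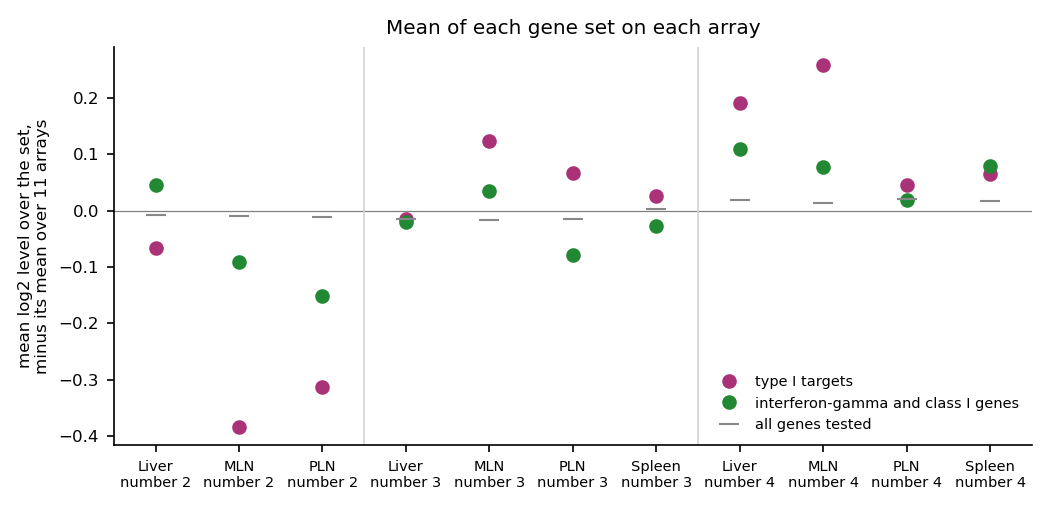
Mean log2 level of 18 type I targets (purple), 14 interferon-gamma and class I genes (green) and all 7436 genes tested (grey bars) on each array, relative to the mean of each gene over the 11 arrays. The MLN and PLN arrays numbered 2 lie lowest for type I targets, at -0.38 and -0.31, while the mean of all genes stays near 0.

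Between numbers 3 and 2, 10 members passed and all 10 were higher in number 3 (background 18.9% called, 9.29% higher and 9.59% lower). Between numbers 4 and 2, 16 passed (background 27.2%), 14 of them higher (14.8%) and 2 lower (12.4%). Between numbers 4 and 3, 13 passed (background 43.3%), 10 higher (22.3%) and 3 lower (21%). The median difference of the type I targets was 0.32 for number 3 against 2 and 0.40 for number 4 against 2, with 17 of 18 above zero in both, and -0.02 for number 4 against 3. For the interferon-gamma and class I genes these medians were 0.07, 0.08 and 0.02, and over all genes 0.00, 0.01 and 0.01. The first and second of these comparisons share the arrays numbered 2, and the counts depended on them: without MLN replicate 2 they were 3 and 6, and without PLN replicate 2 they were 5 and 9. The count for number 4 against 3 was 7 when either spleen array was left out, and 8 when Liver replicate 3 or MLN replicate 4 was. Calls over all genes were not counted with an array left out, so a loss of calls general to all genes cannot be told apart. Of the 39 called differences, 17 kept their call under all 8 other settings of pseudocount, scaling, filter, probe set rule, organ term and arrays used, and every one kept its sign. For Rsad2 only 7 settings were available, since the mean of its probe sets did not pass the filter. The 17 were both differences from number 2 of Oasl2, Usp18, Ifitm3 and Gbp2, both differences of number 4 from the others for Bst2, Tap2 and Tapbp, and 1 each for Irf7 (4 against 2), Zbp1 (3 against 2) and Gbp3 (4 against 3).

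**Figure D4:**
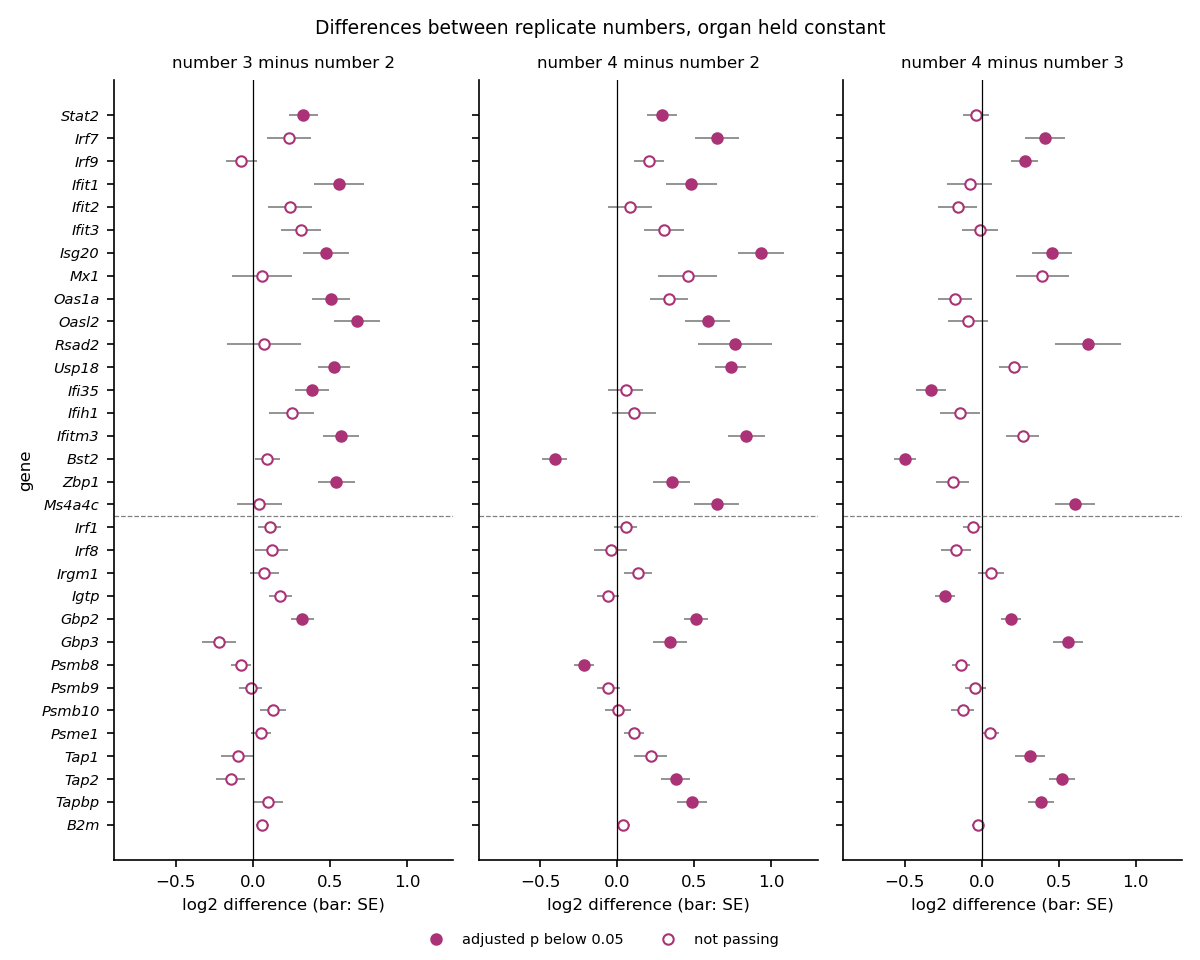
Log2 differences between replicate numbers with organ held constant (x axis, bars are SE) for each of the 32 members, type I targets above the dashed line and interferon-gamma and class I genes below it. Filled points passed at an adjusted p below 0.05, and Bst2, Psmb8, Ifi35 and Igtp are the filled points below zero.

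The transcription factors that carry the type I signal were among the members that changed. Irf7, which drives production of type I interferon and is itself induced by it, read 8.81, 8.07 and 8.24 on the liver, MLN and PLN arrays numbered 2. On the liver, MLN, PLN and spleen arrays it read 8.58, 8.82, 8.46 and 8.55 in number 3 and 9.25, 8.95, 8.81 and 9.06 in number 4. After normalization number 4 lay above number 2 without overlap, though only narrowly for the liver array numbered 2. As deposited, the PLN array numbered 4 (intensity 436.5) lay below that liver array (440.9). Irf7 rose by 0.64 (SE 0.14, adjusted p = 0.00643) in number 4 against 2 and by 0.41 (SE 0.13, adjusted p = 0.0207) in number 4 against 3. Stat2, a subunit of the type I transcription complex, was 0.33 higher in number 3 (SE 0.10, adjusted p = 0.0332) and 0.29 higher in number 4 (SE 0.10, adjusted p = 0.0406) than in number 2. Irf9, the DNA-binding subunit of that complex, was higher in number 4 than in 3 by 0.28 (SE 0.09, adjusted p = 0.0225). The F-test call of Stat2 was lost when any of 4 arrays was left out and that of Irf9 when any of 9 was. Median centring ended the calls of both (adjusted p = 0.0614 and 0.0848 for Stat2 and 0.0512 for Irf9), and the mean of the Stat2 probe sets gave 0.147 and 0.135. Without the spleen arrays the call of Irf7 in number 4 against 3 was lost.

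For Usp18 the numbers 2, 3 and 4 did not overlap, and the same held for Ifitm3 after quantile normalization. Usp18, a protease that removes ISG15 from proteins and dampens type I receptor signalling, read 8.32, 8.09 and 8.44 in number 2, 8.72, 8.75, 8.89 and 8.88 in number 3, and 8.96, 9.10, 9.07 and 8.95 in number 4, in the order liver, MLN, PLN and spleen. The arrays numbered 2 were lowest and those numbered 4 highest. Usp18 rose by 0.53 (SE 0.10, adjusted p = 0.00537) in number 3 against 2 and by 0.73 (SE 0.10, adjusted p = 0.000491) in number 4 against 2. Ifitm3, a membrane protein that blocks entry of viruses, read 11.99, 11.25 and 12.20 in number 2, 12.48, 12.21, 12.49 and 12.48 in number 3, and 12.54, 12.59, 12.80 and 12.80 in number 4. The order of the numbers was that of Usp18, and the MLN array numbered 2 was the lowest of all. As deposited, Ifitm3 was higher on the PLN array numbered 2 (intensity 4950.4) than on the MLN array numbered 3 (4771.4). Ifitm3 rose by 0.57 (SE 0.12, adjusted p = 0.00709) in number 3 against 2 and by 0.84 (SE 0.12, adjusted p = 0.000529) in number 4 against 2.

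Oasl2, Zbp1, Oas1a and Ifit1, which sense or act on viral nucleic acids, were lower in number 2 than in number 3, and none of these 4 passed between numbers 3 and 4. Oasl2, a relative of the enzymes that make the RNase L activator, read 7.31, 7.33 and 6.88 in number 2, 7.62, 8.08, 7.78 and 7.60 in number 3, and 7.86, 7.86, 7.61 and 7.40 in number 4. Every array numbered 2 was below every other array. Oasl2 rose by 0.67 (SE 0.15, adjusted p = 0.00883) in number 3 against 2 and by 0.59 (SE 0.15, adjusted p = 0.0121) in number 4 against 2. Zbp1, a sensor of Z-form nucleic acids, was also below all others in number 2, at 9.20, 9.03 and 9.14, against 9.26 to 9.85 elsewhere. Its differences from number 2 were 0.54 (SE 0.12, adjusted p = 0.00964) for number 3 and 0.35 (SE 0.12, adjusted p = 0.0466) for number 4, the latter lost under 4 of the 8 other settings (adjusted p = 0.0645 to 0.0854). Oas1a, an oligoadenylate synthetase, rose by 0.50 (SE 0.12, adjusted p = 0.0154) in number 3 against 2, and Ifit1, which binds foreign 5′ RNA ends, by 0.56 (SE 0.16, adjusted p = 0.0344). The F-test call of Oas1a was lost without MLN replicate 2 or 3, and its difference did not pass without the organ term (adjusted p = 0.0577). The call of Ifit1 over numbers was lost when any of 6 arrays was left out, and its difference did not pass without the filter (0.0834) or without the spleen arrays (0.0600). Ifit2 and Ifit3, of the same family, did not pass over numbers (adjusted p = 0.335 and 0.109). Ifih1, the RNA sensor MDA5, had an adjusted p of 0.320.

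In the fit with organ as a term, Isg20, Ms4a4c and Rsad2 were higher in number 4 than in either other number. Isg20 rose by 0.93 (SE 0.15, adjusted p = 0.000992) in number 4 against 2 and by 0.46 (SE 0.13, adjusted p = 0.0154) in number 4 against 3, most of all on the MLN array numbered 4. Ms4a4c rose by 0.65 (SE 0.15, adjusted p = 0.00710) and 0.61 (SE 0.13, adjusted p = 0.00272) in the same comparisons. Rsad2, the antiviral enzyme viperin, rose by 0.76 (SE 0.24, adjusted p = 0.0345) and 0.69 (SE 0.22, adjusted p = 0.0214). Other Rsad2 probe sets, of lower mean level, differed by less, 0.19 and 0.46 in number 4 against 2 and 0.25 and 0.41 in number 4 against 3. The intensities of Rsad2 were low, at 62.7 to 183.2. After normalization its arrays numbered 4, at 7.44, 7.69, 7.36 and 7.53, lay above all others, which ran from 6.37 to 7.33. As deposited, the liver array numbered 4 (intensity 150.1) lay just below that numbered 2 (150.7). Leaving out any of 5 arrays ended the call of Rsad2 over numbers. Both differences of Rsad2 also failed to pass without the filter (adjusted p = 0.0821 and 0.0544) and without the spleen arrays (0.0528 and 0.0618). Without the organ term the differences of Isg20 and Ms4a4c did not pass. For both genes the arrays numbered 4 overlapped with those of each other number. On the spleen arrays Isg20 was lower in number 4 than in number 3, with a difference of -0.13. Mx1, a dynamin-like antiviral GTPase that is truncated in many laboratory mouse strains, had differences of 0.46 and 0.39 that did not pass (adjusted p = 0.105 and 0.0869).

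Bst2 and Ifi35 were the only 2 type I targets with a called fall between numbers. Bst2, or tetherin, holds budding virus particles at the cell surface, and read 9.90, 9.86 and 9.73 in number 2, 9.85, 10.01, 9.87 and 9.86 in number 3, and 9.35, 9.60, 9.36 and 9.30 in number 4. All 4 arrays numbered 4 were below all 7 others. Bst2 fell by 0.41 (SE 0.08, adjusted p = 0.00381) in number 4 against 2 and by 0.50 (SE 0.07, adjusted p = 0.000206) in number 4 against 3. Ifi35, an interferon-induced leucine zipper protein, rose by 0.38 (SE 0.11, adjusted p = 0.0340) in number 3 against 2 and fell by 0.33 (SE 0.10, adjusted p = 0.0189) in number 4 against 3, and both were lost without the spleen arrays (adjusted p = 0.0606 and 0.0828). Its F-test call was lost without MLN replicate 3 or either spleen array. The promoter of Bst2 shown above holds the same kinds of letters as those of genes that rose.

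**Figure D5:**
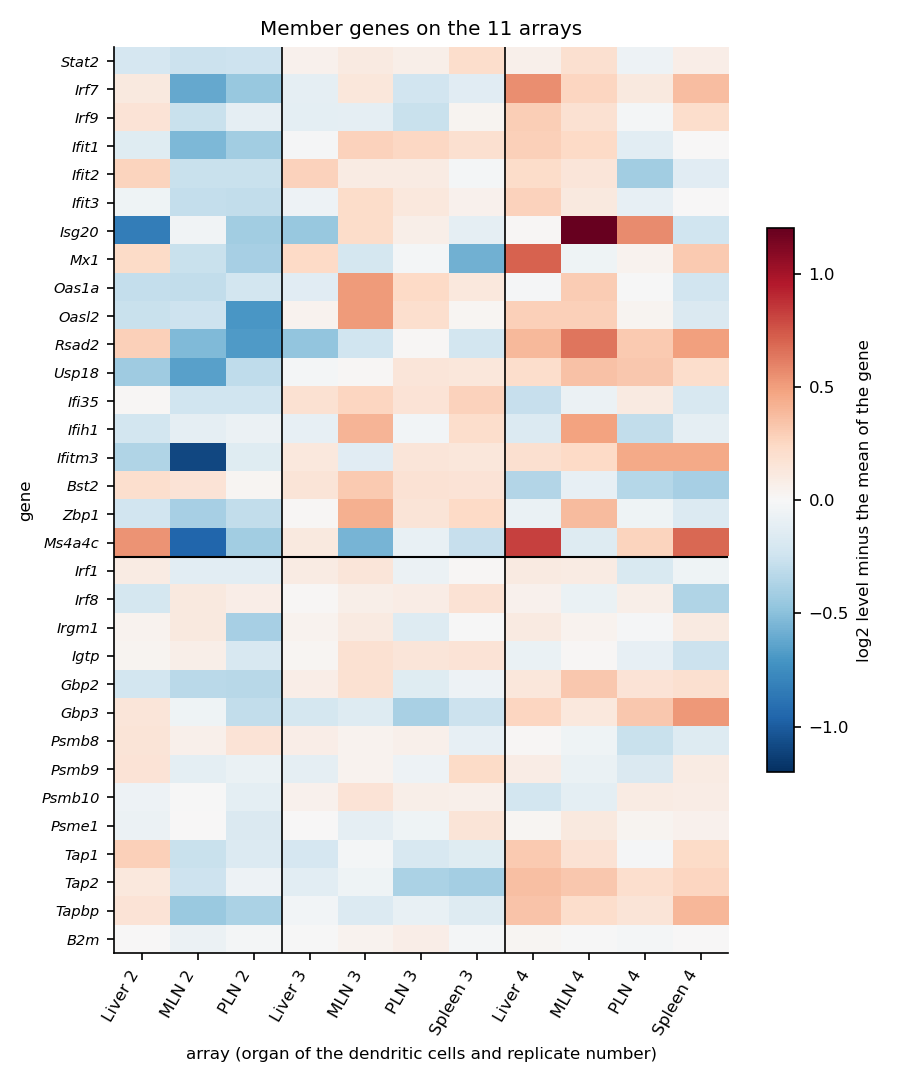
Log2 level of each of the 32 members on the 11 arrays, relative to the mean of that gene over the arrays, with columns ordered by replicate number and then organ and a black line between the gene classes. Blue fills most type I targets on the MLN and PLN arrays numbered 2, Isg20 is darkest red on the MLN array numbered 4, and the class I genes are paler.

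Among the interferon-gamma targets, the guanylate-binding proteins Gbp2 and Gbp3 rose. Gbp2, a GTPase that attacks membranes of vacuoles holding pathogens, read 10.85, 10.75 and 10.73 in number 2, 10.92 to 11.25 in number 3, and 11.21, 11.39, 11.24 and 11.26 in number 4. Its arrays numbered 2 were the lowest, and it rose in number 3 by 0.32 (SE 0.08, adjusted p = 0.0130) and in number 4 by 0.51 (SE 0.08, adjusted p = 0.000653). A second Gbp2 probe set differed by 0.38 and 0.72. Gbp3, of the same family, read 9.10, 9.16, 8.92 and 9.06 in number 3 and 9.57, 9.44, 9.64 and 9.83 in number 4. Gbp3 rose by 0.56 (SE 0.10, adjusted p = 0.000796) in number 4 against 3, without overlap. Igtp, an immunity-related GTPase of the same defence, fell by 0.24 (SE 0.06, adjusted p = 0.0110) in that comparison. The call was lost under median centring (adjusted p = 0.111) and without the spleen arrays (0.0641), and the F-test call without PLN replicate 3 or either spleen array. Irgm1 did not pass over numbers (adjusted p = 0.460). Irf1, an early interferon-gamma target, and Irf8, a factor of myeloid and lymphoid cells, also did not pass (adjusted p = 0.441 and 0.322).

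In class I presentation the peptide transporter and its partner were higher in number 4. Of the 4 measured proteasome genes 1 passed over numbers, where 48.1% of all genes tested passed. Tap2, a subunit of the transporter that carries peptides into the endoplasmic reticulum, read 10.63, 10.26 and 10.44 in number 2, 10.39, 10.46, 10.13 and 10.10 in number 3, and 10.87, 10.83, 10.71 and 10.76 in number 4. Number 4 lay above all other arrays. Tap2 rose by 0.38 (SE 0.09, adjusted p = 0.0121) in number 4 against 2 and by 0.52 (SE 0.08, adjusted p = 0.000423) in number 4 against 3. Tapbp, or tapasin, which tethers class I molecules to the transporter, rose by 0.49 (SE 0.10, adjusted p = 0.00343) and 0.39 (SE 0.09, adjusted p = 0.00324). Tap1, the other subunit, rose by 0.31 (SE 0.10, adjusted p = 0.0194) in number 4 against 3, and leaving out any of 8 arrays ended its call over numbers, as the mean of its probe sets ended that difference (adjusted p = 0.273). Of the other Tap1 probe sets, 2 differed in the same direction there (0.15 and 0.56) and 1 did not (-0.12). Psmb8, a catalytic subunit of the immunoproteasome, fell by 0.22 (SE 0.06, adjusted p = 0.0276) in number 4 against 2, and leaving out any of 5 arrays ended its call over numbers. The scaling also ended the difference, with adjusted p = 0.109 for intensities as deposited and 0.320 for median centring, as did testing without the filter (0.0644). Its partners Psmb9 and Psmb10 and the activator subunit Psme1 did not pass (adjusted p = 0.765, 0.302 and 0.343), and neither did B2m (0.471). Tap1 and Psmb9 are divergent neighbours on chromosome 17, with 225 bases between their starts.

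The promoter motifs were also counted by whether a member passed over numbers. ISRE letters were found in 9 of the 18 called members with a promoter and in 5 of the 10 others, and GAS letters in 7 of 18 and 3 of 10. The comparison was not tested.

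A list of 15 tested interferon signalling genes held Ifng, receptors, kinases, STAT factors and inhibitors of the signal. Of these, 13 passed the F-test over numbers (86.7%, background 48.1%) and 0 the blocked F-test over organs (background 1.99%). Ifng, which encodes interferon-gamma, read 9.17, 9.24 and 9.10 on the liver, MLN and PLN arrays numbered 2 and 10.24 to 11.39 on the 8 others. It was 1.68 (SE 0.17, adjusted p = 0.000153) higher in number 3 and 1.70 (SE 0.17, adjusted p = 8.33e-05) higher in number 4 than in number 2, with no overlap. Its part in the members' differences was not tested. Socs1, an inhibitor of JAK kinases, rose by 0.91 (SE 0.15, adjusted p = 0.00196) in number 3 against 2 and fell by 1.12 (SE 0.13, adjusted p = 4.55e-05) in number 4 against 3. Jak1 and Ptpn2, a kinase of both interferon receptors and a phosphatase that opposes it, fell by 0.37 (SE 0.06, adjusted p = 0.00272) and 0.43 (SE 0.08, adjusted p = 0.00375) in number 3 against 2. In number 4 against 3 they rose by 0.54 (SE 0.06, adjusted p = 1.96e-05) and 0.40 (SE 0.07, adjusted p = 0.000743).

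Among 32 other tested interferon targets 13 passed over numbers (40.6%, background 48.1%) and 0 over organs in the blocked fit (background 1.99%). Ifitm1 and Ifitm2, relatives of Ifitm3, rose in number 4 against 2 by 0.92 (SE 0.10, adjusted p = 0.000132) and 0.70 (SE 0.07, adjusted p = 0.000111). Cd274, which encodes the inhibitory ligand PD-L1, and Ifi30, a thiol reductase of antigen processing, rose in number 3 against 2 by 0.71 (SE 0.09, adjusted p = 0.000529) and 0.58 (SE 0.10, adjusted p = 0.00235). In number 4 against 3 Cd274 fell by 0.62 (SE 0.08, adjusted p = 7.42e-05) and Ifi30 fell by 0.76 (SE 0.09, adjusted p = 3.79e-05).

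Of 10 tested class I molecules and loading factors outside the list, 1 passed the blocked F-test over organs (background 1.99%). H2-Q10, a class I gene known for a secreted product of the liver, was lowest with liver dendritic cells, at 8.41, 8.74 and 9.88 in numbers 2, 3 and 4. The MLN arrays read 10.04, 9.87 and 10.97, the PLN arrays 9.98, 9.48 and 11.04, and the spleen arrays numbered 3 and 4 9.42 and 10.60. In the blocked fit it fell by 1.09 in liver (adjusted p = 0.00108), a call that no left-out array ended, whereas without the block it did not pass. The rise of 0.62 in MLN (adjusted p = 0.0165) was lost without any of the 3 MLN arrays (adjusted p = 0.155, 0.105 and 0.0585) and without the filter on low values (0.0520). Over numbers 5 of the 10 passed (50%, background 48.1%), among them H2-K1, a classical class I heavy chain, which was 0.91 (SE 0.11, adjusted p = 0.000606) higher in number 3 and 0.80 (SE 0.11, adjusted p = 0.000541) higher in number 4 than in number 2. Class I heavy chain genes are near copies of each other and differ between the strains, so a probe set can read several of them, and the strain of origin cannot be told apart. The Ifit, Oas, Gbp and Ifitm families have close relatives too, and their members' values carry the same limit.

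Of 16 constitutive proteasome genes, counting the activators Psme3 and Psme4 with the subunits, 11 passed as lower in number 4 than in number 3 (background 21%). As higher 0 passed (22.3%). The median difference was -0.27, with 14 below zero and Psma6 (0.02) and Psme4 (0.05) above it, and 6 passed as lower when arrays were centred on their medians. Examples are Psma4 and Psma2, subunits of the outer ring, at -0.37 (SE 0.05, adjusted p = 7.61e-05) and -0.35 (SE 0.05, adjusted p = 0.000106). Psmb5, whose place Psmb8 takes in the immunoproteasome, stood at -0.40 (SE 0.06, adjusted p = 0.000318) and Psmb8 itself at -0.14 (SE 0.06, adjusted p = 0.0758). The difference between these subunits was not tested.

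Marker sums of other cell types were examined beside these differences. Summed intensities of 10 T cell markers were 25404.3 to 30847.3 in number 2, 24880.7 to 25859.3 in number 3 and 27745.1 to 36207.5 in number 4. The sums of numbers 3 and 4 did not overlap, and 7 of the 10 markers passed over numbers (background 48.1%). In number 4 against 3, 5 passed as higher (background 22.3%) and 2 as lower (21%). The lower were Cd2, at -0.29 (SE 0.08, adjusted p = 0.0102), and Cd4, at -0.34 (SE 0.08, adjusted p = 0.00331). In the blocked F-test over organs 2 of the 10 T cell markers passed, and 2 of 5 tested macrophage and monocyte markers (background 1.99%). The latter were Cd14, lower in MLN by 1.15 (adjusted p = 0.0323), and Lyz2, higher in liver by 0.74 (adjusted p = 0.0424). Their intensities were low, 21.9 to 237.9 and 54 to 226.6. The T cell markers were Cd2 and Cd28, at -0.52 and -0.30 in MLN and 0.21 and 0.31 in liver. Markers of both cell types thus had the directions of Ms4a4c. Over the 10 T cell markers the median was -0.10 in MLN, where Cd8a stood at 0.19, and 0.16 in liver. Among the other macrophage and monocyte markers, Ctss stood at -0.27 in MLN and 0.12 in liver, Csf1r at -0.29 and -0.02, and Cd68 at 0.15 and 0.025. Cd3e, a subunit of the T cell receptor complex, had intensities of 1480.2 to 3680.3. Dendritic cell markers, 12 of 12 measured, summed to 6819.3 to 7264.4 in number 2, 9973.7 to 11312.5 in number 3 and 5446.2 to 7091.2 in number 4. This sum was thus highest in number 3 without overlap, and Ccl22 alone ran from 505.5 to 3572.3. Of the 10 tested, 8 passed as lower in number 4 than in number 3 (background 21%). Only Itgax passed as higher (22.3%), by 1.85 (SE 0.13, adjusted p = 1.67e-06), at intensities of 80.8 to 539.9. The 3 measured NK cell markers summed to 558.1 to 692.3, 701.7 to 888.4 and 942.1 to 1259.2, mostly from Eomes, which activated CD8 T cells express as well. Markers of macrophages and monocytes (8 of 9 measured) summed to 2332.6 to 4100.5 and of plasmacytoid dendritic cells (4 of 6) to 446 to 663.6 over all arrays. B cell markers (6 of 7) summed to 801.6 to 1036.6 in number 2, 511.9 to 722.4 in number 3 and 689.4 to 827.1 in number 4, without overlap between numbers 2 and 3, and 0 of the 4 measured neutrophil markers passed the filter on low values. Their part in the results by number and organ was not tested, and in RNA of whole cultures fewer cells of a type and less RNA per cell cannot be told apart. Median intensities of the arrays were 144.3 to 170.4 and arrays correlated at 0.966 to 0.985.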

How the data were processed

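The values deposited by the authors are linear intensities, 1 for each probe set on each array, already scaled, since the mean after trimming 2% at each end was 500.2 on all 11 arrays. The software behind these values is not given in the sources used here. Of 22690 probe sets, 64 controls were dropped after normalization; 20380 of the rest had 1 gene symbol in the platform annotation, 691 several and 1555 none. Symbols were updated through Entrez IDs to GRCm38.p6.

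Intensities were transformed as log2(intensity + 16) and quantile normalized, and each gene was read from its probe set of highest mean. Genes in the upper 60% by mean level, above an intensity of 104.7, were compared by limma 3.58.1 under R 4.3.3 (lmFit, and eBayes with a variance trend), using Benjamini-Hochberg adjustment over all 7436 genes at 0.05. The fit set as the main one has 4 organ means and no block (7 residual degrees of freedom). The blocked fit adds the replicate number as a fixed term (5), and the fit over numbers keeps organ as a term (5). The 16 added before the log2 step understates changes of genes of low intensity. The number of arrays limits the precision.

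The replicate numbers come from the labels. After organ means were removed, correlations across genes were 0.412 to 0.731 for the 15 pairs of arrays that share a number and -0.708 to 0.0843 for the 30 other pairs, so the numbers were taken to pair the arrays. The scripts were tested on simulated data. The members, marker and pathway lists were chosen with earlier results of these data known. Any member may be named; from each pathway list up to 4 genes of smallest p were named, and marker genes only by their list or role. Alternatives were other pseudocounts, scalings, filters, probe set rules and arrays left out.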

Additional observations from a re-analysis of the deposited data

How the results depend on the processing

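The counts of members by organ were 0 without a block under each alternative, and 0 with any array left out. With the replicate block they were 2 (F-test), 1 (liver), 2 (MLN), 0 (PLN) and 0 (spleen), and with an array left out 0 to 2, 0 to 2, 0 to 2, 0 and 0. Alternatives of the blocked fit that were chosen after seeing the data gave, for F-test, liver and MLN, 2, 1 and 2 both with intensities as deposited and with median centring, 0, 0 and 0 without the filter on low values, and 2, 0 and 2 with the mean of all probe sets of a gene. Over numbers, the count of 21 was 15 to 21 under the other settings and 16 to 20 with an array left out. Without the filter on low values, which tests more genes, 6 members differed between numbers 3 and 2 and 10 between numbers 4 and 2. With liver, MLN and PLN arrays alone 7 differed between numbers 4 and 3. With an array left out these counts were 3 to 10 (numbers 3 and 2), 6 to 17 (4 and 2) and 7 to 14 (4 and 3), the lowest for number 3 or 4 against 2 being without MLN replicate 2. Counts of calls in the pathway lists over numbers, examined after seeing the data, were 9 to 12 of 15, 9 to 20 of 32, 5 to 7 of 10 and 9 to 10 of 16 with an array left out. The share of all genes called was not counted without the filter, without the spleen arrays or with an array left out. No called difference reversed its direction. Between the fits without and with the block, the median over the members in spleen went from 0.06 (20 of 32 above zero) to -0.03 (14 of 32), and that over the type I targets in MLN from -0.01 to 0.03. The cause of the moved counts was not tested. What the replicate numbers stand for is not given in the labels.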
